A study of Mus musculus with 12 samples.

Results

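Crxos, Kbtbd11 and Pla2g4e are 3 genes of the 26742 in the count table, described here in mouse embryonic stem (ES) cells of 2 backgrounds, 129 and B6J, each with and without a MEK inhibitor. They were selected on their levels in these same libraries, which were highest in 129 cells with the inhibitor and near 0 in B6J cells. Their levels and fold changes are therefore a description and carry no p-value. All 3 passed the filter on low counts, and each did so through the 129 groups, where its counts are high.

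The 4 groups were 129 cells with the inhibitor, 129 cells with DMSO, B6J cells with the inhibitor and B6J cells with DMSO, with 3 libraries each. All were male ES cells in serum and leukaemia inhibitory factor (LIF), and they received 1 µM PD 0325901, which blocks the kinase MEK, or its solvent DMSO every day until day 5. The labels give a single genotype name per background and no clone, so background and cell line cannot be told apart. Whether the 3 libraries of a group are separate cultures is not stated, so the p-values below measure only the spread between libraries, which may be technical.

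Totals per library were between 65564142 and 82701438 counts in 129 with the inhibitor, between 62634533 and 73031809 in 129 with DMSO, between 81310810 and 96341637 in B6J with the inhibitor and between 74164171 and 82505523 in B6J with DMSO. All 5 ERK target genes examined, among them the immediate early gene Egr1, fell with the inhibitor in both backgrounds (edgeR, Benjamini-Hochberg adjusted p under 0.05). By the same test 18.2% of all genes tested fell in 129 and 16.5% fell in B6J. In each group 1 library stood apart from the other two in its counts over all genes: replicate 1 of both 129 groups and of B6J with DMSO, and replicate 3 of B6J with the inhibitor. Nnt, from which C57BL/6J mice lack several exons, did not have the lower count in B6J (129 over B6J log2 fold change -0.55 with the inhibitor, adjusted p = 0.121, and -0.71 with DMSO, adjusted p = 0.0464, both edgeR), and a count per gene does not show whether exons are missing.

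MEK activates the kinase ERK, which pushes mouse ES cells out of the naive state, and MEK inhibitors are a standard part of media that hold cells there. Crxos encodes a homeobox protein, a DNA-binding factor, known from mouse preimplantation embryos and ES cells, and lies back to back with Crx, the cone-rod homeobox gene of photoreceptors. Kbtbd11 encodes a BTB and kelch domain protein, and proteins of that build commonly serve as substrate adaptors of cullin 3 (CUL3) ubiquitin ligases. Pla2g4e encodes cytosolic phospholipase A2 epsilon, an N-acyltransferase that makes N-acyl phosphatidylethanolamine, the precursor of N-acylethanolamines such as the endocannabinoid anandamide.

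All 3 are annotated as protein coding in GENCODE M21 on GRCm38. Crxos spans chr7:15882617-15904020 on the plus strand, and its exons cover 2956 bp. Kbtbd11 spans chr8:15011025-15033333 on the plus strand, with 7137 bp of exon. Pla2g4e spans chr2:120166412-120245335 on the minus strand, with 6960 bp of exon. No annotated gene overlaps Crxos. Kbtbd11 shares exon sequence with Gm37844 on the opposite strand, and Pla2g4e shares it with Gm13997 on the same strand, while the antisense gene 5830468F06Rik lies within Kbtbd11 without exon overlap. None of those has an entry in the count table, and how reads in the shared stretch were assigned is not given in the sources used here.

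RefSeq promoter sequences on GRCm38.p6, which is the C57BL/6J reference and so not the 129 sequence, were matched for Crxos and Pla2g4e. They are shown because the series title concerns DNA methylation, which in mammals falls mostly on CG dinucleotides, and each CG is in capitals. Crxos has 3 annotated starts. The first and the third are given here, as chr7:15882367-15882616 and chr7:15901396-15901645 on the plus strand, beside the single Pla2g4e start, chr2:120245336-120245585 on the minus strand, each as the 250 bases before the start.
Crxos start 1: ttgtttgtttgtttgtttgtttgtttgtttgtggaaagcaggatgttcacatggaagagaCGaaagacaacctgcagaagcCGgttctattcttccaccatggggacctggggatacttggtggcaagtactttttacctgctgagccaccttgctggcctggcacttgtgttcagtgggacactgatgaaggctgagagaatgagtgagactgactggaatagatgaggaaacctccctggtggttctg
Crxos start 3: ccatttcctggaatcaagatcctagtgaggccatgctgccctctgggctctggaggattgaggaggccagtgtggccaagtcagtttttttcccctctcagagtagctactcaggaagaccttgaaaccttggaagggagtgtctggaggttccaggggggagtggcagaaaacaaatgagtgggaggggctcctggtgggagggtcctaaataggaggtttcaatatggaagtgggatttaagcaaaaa
Pla2g4e start: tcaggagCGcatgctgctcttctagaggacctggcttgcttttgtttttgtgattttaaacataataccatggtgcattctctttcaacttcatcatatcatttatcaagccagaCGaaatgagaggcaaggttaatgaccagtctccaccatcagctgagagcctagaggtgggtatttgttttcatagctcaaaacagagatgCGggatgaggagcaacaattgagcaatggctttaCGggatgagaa

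These windows were poor in CG. The first Crxos window held 2, the second (chr7:15895874-15896123, not shown) held 3, the third held 0 and the Pla2g4e window held 4, against a median of 6 over 32851 promoter windows of the same length. Windows with as few or fewer CG made up 29.0%, 37.8%, 7.87% and 44.4% of all promoter windows, in that order, so only the third Crxos window lay far down that range. The 4 motifs were searched on both strands: the ETS core CCGGAAG (in 6.91% of all promoter windows), the STAT site TTCNNNGAA (7.02%), the ESRRB site TCAAGGTCA (0.387%) and the octamer ATGCAAAT (1.60%). The only match in the 4 windows was the STAT sequence TTCCTGGAA at chr7:15901400-15901408, 246 bases before the third Crxos start. None of the other motifs' letters occurs in these windows.

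Crxos had the widest range of the 3 genes over the 4 groups. It had 2134, 2313 and 3094 counts in 129 libraries with the inhibitor, against 246, 405 and 460 in 129 libraries with DMSO. In B6J it had 18, 18 and 18 counts with the inhibitor, against 2, 2 and 2 with DMSO. In CPM, counts brought to the same library size with TMM factors, that is 29.5, 34.9 and 37.5 CPM in 129 with the inhibitor and 3.38, 5.67 and 7.18 CPM in 129 with DMSO. In B6J it is 0.228, 0.219 and 0.189 CPM with the inhibitor and 0.0252, 0.0241 and 0.0270 CPM with DMSO. The order was 129 with the inhibitor, 129 with DMSO, B6J with the inhibitor and B6J with DMSO, and no neighbouring groups in it overlapped.

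The inhibitor and the background therefore both separated the Crxos levels. The mean was 33.9 ± 4.09 CPM in 129 with the inhibitor and 5.41 ± 1.91 CPM in 129 with DMSO (SD, n = 3 each), a ratio of 6.28 and a fitted log2 fold change of 2.65 (SE 0.22). In B6J it was 0.212 ± 0.0202 CPM with the inhibitor and 0.0254 ± 0.00147 CPM with DMSO (SD, n = 3 each), a ratio of 8.34 and a log2 fold change of 2.98 (SE 0.48). The difference of the responses, 129 minus B6J, was -0.33 (SE 0.50) on the log2 scale. So on a relative scale the inhibitor accompanied an increase of Crxos in both backgrounds, from very different levels, and the label "129 only" holds for the level and not for the direction.

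The B6J values of Crxos rest on few reads. All 6 B6J libraries held even counts of Crxos, as they did of Pla2g4e, and 5 of the 6 held even counts of Kbtbd11. In every library of the table most low values are multiples of 2 (70.09 to 73.37% of values from 1 to 20 were even). With counts halved the B6J sums of 54 with the inhibitor and 6 with DMSO keep their ratio and lose precision.

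Kbtbd11 moved in opposite directions in the 2 backgrounds. It had 2055, 2381 and 3064 counts in 129 libraries with the inhibitor (28.4, 35.9 and 37.1 CPM), against 630, 938 and 870 with DMSO (8.65, 13.1 and 13.6 CPM). In B6J it had 24, 19 and 14 counts with the inhibitor (0.304, 0.231 and 0.147 CPM), against 60, 48 and 44 with DMSO (0.755, 0.578 and 0.594 CPM). Every 129 library with the inhibitor lay above every 129 library with DMSO, and every B6J library with the inhibitor lay below every B6J library with DMSO.

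The mean of Kbtbd11 was 33.8 ± 4.75 CPM in 129 with the inhibitor and 11.8 ± 2.73 CPM in 129 with DMSO (SD, n = 3 each), a ratio of 2.87 and a log2 fold change of 1.52 (SE 0.21). In B6J it was 0.227 ± 0.0784 CPM with the inhibitor and 0.642 ± 0.0982 CPM with DMSO (SD, n = 3 each), a log2 fold change of -1.51 (SE 0.28), with the DMSO mean 2.83 times that with the inhibitor. The difference of the responses, 129 minus B6J, was 3.03 (SE 0.35) on the log2 scale, and it lay between 2.78 and 3.27 with any 1 library left out. Kbtbd11 was also the gene with the smallest background difference in DMSO, 18.4 times, and its B6J level with DMSO was the highest B6J level of the 3 genes.

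Pla2g4e was near 0 in all B6J libraries. It had 981, 1245 and 1522 counts in 129 libraries with the inhibitor (13.5, 18.8 and 18.4 CPM), against 299, 324 and 270 with DMSO (4.10, 4.54 and 4.21 CPM). In B6J it had 2, 10 and 6 counts with the inhibitor (0.0253, 0.122 and 0.0630 CPM), against 0, 2 and 6 with DMSO (0, 0.0241 and 0.0809 CPM). The 129 groups did not overlap and the B6J groups did.

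Pla2g4e averaged 16.9 ± 2.93 CPM in 129 with the inhibitor and 4.28 ± 0.225 CPM in 129 with DMSO (SD, n = 3 each), a ratio of 3.95 and a log2 fold change of 1.98 (SE 0.32). In B6J it averaged 0.0700 ± 0.0485 CPM with the inhibitor and 0.0350 ± 0.0416 CPM with DMSO (SD, n = 3 each), from 18 and 8 counts in all, a log2 fold change of 1.01 (SE 0.73). That value moved to 2.37 without replicate 3 of B6J with DMSO and to 0.42 without replicate 2 of B6J with the inhibitor, so a response of Pla2g4e in B6J was not measurable at this depth. The difference of the responses, 129 minus B6J, was 0.97 (SE 0.89) and turned to -0.39 without replicate 3 of B6J with DMSO.

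**Figure D1:**
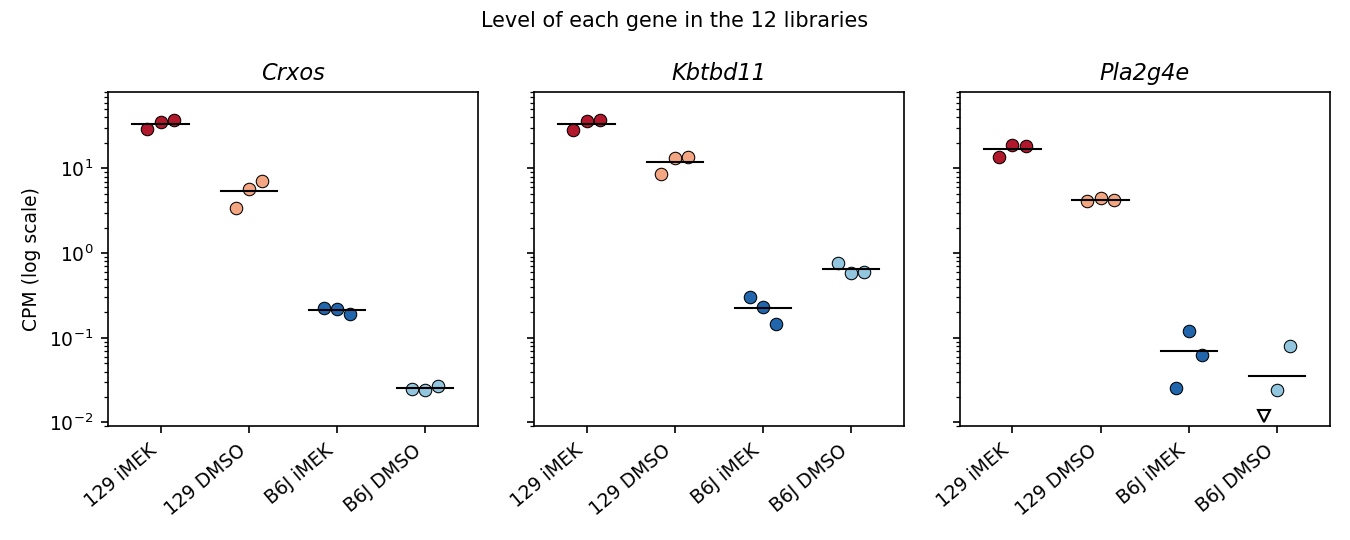
Level in CPM (log axis) of Crxos, Kbtbd11 and Pla2g4e in each of the 12 libraries, in the order 129 with the inhibitor (iMEK), 129 with DMSO, B6J with the inhibitor and B6J with DMSO. Points are libraries, bars are group means over 3 libraries, and the open triangle marks the B6J DMSO library with 0 Pla2g4e counts. All 129 libraries lie at 3.38 CPM or above and all B6J libraries at 0.755 CPM or below.

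Between the backgrounds the 3 genes differed by far more than between media. With the inhibitor the 129 mean was 160 times the B6J mean for Crxos, 149 times for Kbtbd11 and 242 times for Pla2g4e, as log2 fold changes 7.32 (SE 0.29), 7.23 (SE 0.29) and 7.88 (SE 0.47). With DMSO it was 213 times for Crxos, 18.4 times for Kbtbd11 and 122 times for Pla2g4e, as log2 fold changes 7.65 (SE 0.37), 4.19 (SE 0.25) and 6.91 (SE 0.51). The Pla2g4e values moved to 8.49 with the inhibitor without replicate 2 of B6J with the inhibitor, and to 8.27 with DMSO without replicate 3 of B6J with DMSO. In bulk RNA, fewer cells that express a gene and less RNA per cell cannot be told apart.

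Among the 16627 genes tested, ordered by log2 fold change from the highest, Pla2g4e was at place 11, Crxos at place 14 and Kbtbd11 at place 15 in 129 over B6J with the inhibitor. In 129 over B6J with DMSO, Crxos was at place 28, Pla2g4e at 40 and Kbtbd11 at 157. For the response in 129 the places were 129 for Crxos, 297 for Pla2g4e and 595 for Kbtbd11. The 3 genes stood near the top of the order by background and lower in the order by response. They were selected on their levels in these libraries, so their high places follow from that choice.

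**Figure D2:**
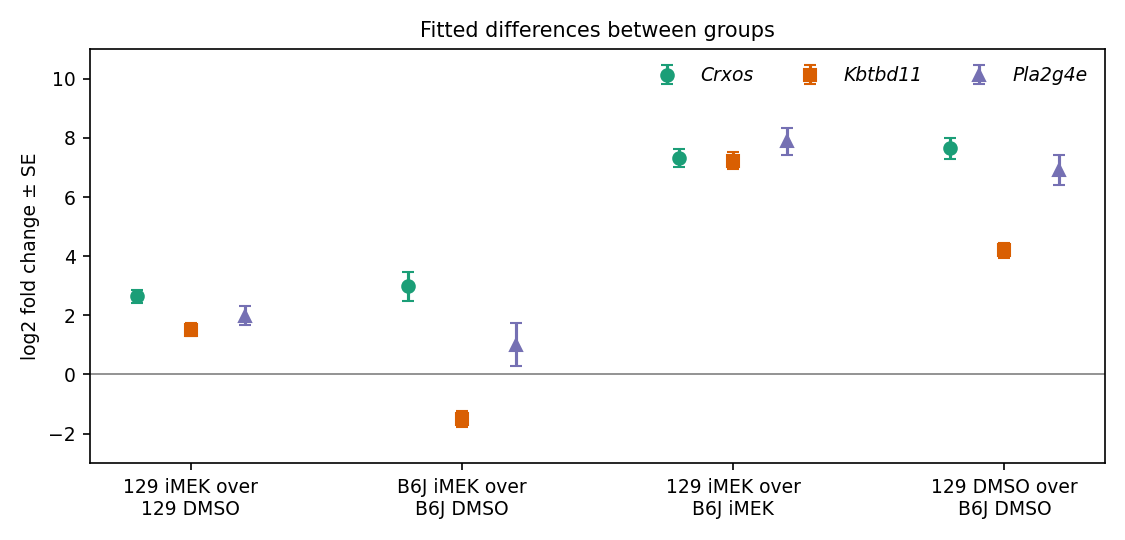
Fitted log2 fold changes with standard errors (bars) of the 3 genes in 4 comparisons. The 129 over B6J values lie between 4.19 and 7.88, above all responses to the inhibitor, and Kbtbd11 alone is below 0 in B6J, at -1.51.

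All 3 genes lay higher, with no overlap of libraries, in 129 with the inhibitor than in 129 with DMSO. Of all genes tested, 23% did the same. All 3 likewise lay above B6J with no overlap, with the inhibitor (19.6% of all genes tested) and with DMSO (17.9%). In B6J, Crxos was higher with no overlap (24.3% of all genes tested) and Kbtbd11 lower with no overlap (25.7%). These counts follow from how the genes were chosen. The comparisons share libraries: each group enters both a response and a background comparison.

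Per kilobase of exon, which allows levels of different genes to be set side by side, Crxos was the highest in 129 with the inhibitor, at 11.5 CPM per kb, against 4.74 for Kbtbd11 and 2.43 for Pla2g4e. In 129 with DMSO, Crxos (1.83 CPM per kb) and Kbtbd11 (1.65 CPM per kb) were close, and Pla2g4e was at 0.616 CPM per kb. In B6J with the inhibitor the levels were 0.0717 CPM per kb for Crxos, 0.0318 for Kbtbd11 and 0.0101 for Pla2g4e. In B6J with DMSO they were 0.00859 CPM per kb for Crxos, 0.0900 for Kbtbd11 and 0.00503 for Pla2g4e, so Kbtbd11 took the place of Crxos as the highest.

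Replicate 1 of each 129 group gave the lowest 129 value of its group for all 3 genes. That library also stood apart in markers of other cell types. The summed level of 16 fibroblast markers was 8475 CPM in replicate 1 of 129 with the inhibitor, against 5367 and 5757 CPM in the other two, and 4293 CPM in replicate 1 of 129 with DMSO, against 2205 and 2313 CPM. The summed level of 10 primitive endoderm markers was 6116 CPM in replicate 1 of 129 with DMSO, against 672 and 667 CPM in the other two. Without replicate 1 of 129 with DMSO the response in 129 was 2.40 for Crxos, 1.34 for Kbtbd11 and 1.95 for Pla2g4e on the log2 scale, and it was 2.75, 1.64 and 2.13 without replicate 1 of 129 with the inhibitor. The part of those other cells in the values was not tested.

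Fibroblast markers moved with the inhibitor in both backgrounds, to sums that overlapped. Of 16, 12 rose in 129 (17.4% of all genes tested rose) and 10 rose in B6J (14.6% of all genes), by edgeR at an adjusted p under 0.05. Between 129 and B6J, edgeR called 0 of 16 with the inhibitor (18.4% of all genes called, 0 of 16 at an unadjusted p under 0.05, 0 by DESeq2) and 0 of 16 with DMSO (20.9% of all genes, 1 at an unadjusted p under 0.05, 0 by DESeq2). Their sum ran from 5367 to 8475 CPM in 129 with the inhibitor, from 2205 to 4293 CPM in 129 with DMSO, from 5032 to 8313 CPM in B6J with the inhibitor and from 3280 to 3865 CPM in B6J with DMSO. None was at 0 in any group. The 3 genes were at 0.304 CPM or less in the B6J libraries with the inhibitor and at 0.755 CPM or less in those with DMSO. The part of fibroblast RNA in the responses and in the background differences was not tested.

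The defining ES cell markers were present in all groups. The sum of 8 ES cell markers, among them Pou5f1, Sox2 and Nanog, ran from 4831 to 5057 CPM in 129 with the inhibitor, from 2761 to 4026 CPM in 129 with DMSO, from 4532 to 4843 CPM in B6J with the inhibitor and from 3439 to 4267 CPM in B6J with DMSO. Of these, 6 rose in 129 and 5 in B6J (17.4% and 14.6% of all genes tested rose). Between the backgrounds 3 of the 8 were called with the inhibitor and 4 with DMSO (18.4% and 20.9% of all genes tested). As log2 fold changes with the inhibitor and with DMSO, Zfp42 (2.84 and 3.02) and Fbxo15 (0.70 and 1.29) were higher in 129. Tdgf1 (-0.56 and -0.67) was lower, as was Dppa5a with DMSO (-0.57), and these calls were lost in some alternatives. The sum of 7 trophoblast markers was 104 to 114 CPM in 129 with the inhibitor and 273 to 752 CPM in 129 with DMSO, and 109 to 114 CPM in B6J with the inhibitor and 403 to 523 CPM in B6J with DMSO, so it was lower with the inhibitor in both. Of the 6 tested, Krt8, Krt18, Cdx2 and Hand1 fell in both backgrounds, while Gata3 rose in 129 (2.28) and in B6J (0.60) and Tfap2c rose in 129 (0.50).

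The 2-cell-like state occurs in a small share of cultured ES cells, which express early embryo genes, and its genes were set beside Crxos. Their summed level, over 10 genes, was 3.55, 10.7 and 9.14 CPM in replicates 1, 2 and 3 of 129 with the inhibitor. In 129 with DMSO it was 3.88, 27.0 and 27.1 CPM, so replicate 1 was the lowest in both groups. The 10 genes had a median log2 fold change in 129 of -0.89 against -0.01 over all genes, opposite in direction to Crxos. In 129, 1 of the 10, Zscan4c, was called lower with the inhibitor, where 18.2% of all genes tested were. That call was lost in 5 alternatives (adjusted p from 0.0740 to 0.115). In B6J the summed level was 5.79 to 7.32 CPM with the inhibitor and 0.902 to 1.04 CPM with DMSO, with 7 of 10 called higher (14.6% of all genes tested). Between the backgrounds with the inhibitor the ranges of the sums overlapped, with replicate 1 of 129 below the B6J sums and replicates 2 and 3 above them. There 1 of the 10 genes, Tcstv1, was called, lower in 129, as were 8.9% of all genes tested (lost in 11 alternatives, adjusted p from 0.0523 to 0.136). With DMSO the 129 sums lay above the B6J sums, and 8 of 10 were called higher in 129 (10.5% of all genes tested), with a median log2 fold change of 3.53 against 0.01 over all genes, the direction of Crxos. Their part in the Crxos levels was not tested. The Zscan4 genes have near-identical copies, between which the counting may have split reads.

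Relatives of Crxos were examined next, as a list of 26 homeobox genes of the Crx, Obox and Rhox kind or with early embryo roles, of which 25 were in the table and 18 were tested. In 129, 8 rose and 3 fell with the inhibitor (17.4% and 18.2% of all genes tested were called higher and lower), with a median log2 fold change of 0.83 against -0.01 over all genes tested. In B6J, 9 rose and 2 fell (14.6% and 16.5% of all genes), with a median of 0.88 against 0.00. Prrx1 and Prrx2, which are among the genes that rose in both, are expressed in fibroblasts. Prrx1 is itself in the list of fibroblast markers, most of which rose as well. The part of fibroblast RNA in these rises was not tested.

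Crx itself, the divergent neighbour of Crxos, was not tested, with mean levels of 0.00807 CPM in 129 with the inhibitor, 0.0541 CPM in 129 with DMSO, 0.0861 CPM in B6J with the inhibitor and 0 in B6J with DMSO. Obox6, an oocyte and early embryo homeobox gene 42.9 kb from the start of Crxos, rose in both backgrounds. It averaged 1.74 CPM in 129 with the inhibitor and 0.539 CPM with DMSO (log2 fold change 1.71, SE 0.51, edgeR adjusted p = 0.0216), and 3.48 CPM in B6J with the inhibitor and 0.317 CPM with DMSO (3.44, SE 0.53, adjusted p = 0.000518). The call in 129 was lost when the fit held only the 129 groups, without replicate 3 of 129 with the inhibitor and without replicate 2 of 129 with DMSO (adjusted p from 0.0526 to 0.0791). Between the backgrounds with the inhibitor Obox6 had a log2 fold change of -0.99 and was not called, so it did not show the background difference of Crxos.

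Some of the other homeobox genes follow, given as log2 fold changes. Hesx1, a repressor that acts in forebrain and pituitary development, rose by 2.75 (SE 0.17, edgeR adjusted p = 9.72e-07) in 129 and by 2.34 (SE 0.16, adjusted p = 2.53e-06) in B6J. Rhox6 and Rhox9, X-linked homeobox genes of the reproductive tract and placenta with close copies, rose by 1.89 and 1.76 in 129, while in B6J they had -0.29 and -0.42 and were not called. Gsc, an organizer gene, had -1.53 in 129 and 1.75 in B6J, both called. Mixl1, a primitive streak gene, had -4.41 in 129 and -1.49 in B6J. Otx2, a homeobox factor of primed cells, was higher in 129 than in B6J with the inhibitor (1.52) and with DMSO (1.97). Duxbl1 had 0 counts in all 129 libraries and 0.766 ± 0.280 CPM in B6J with the inhibitor and 0.623 ± 0.0679 CPM in B6J with DMSO (SD, n = 3 each), the reverse of Crxos by background.

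Genes related to Kbtbd11, 8 other KBTBD genes and 13 genes of CUL3, its neddylation or its kelch adaptors, were all tested. In 129, 2 of 21 rose and 3 fell, with a median log2 fold change of -0.07 (17.4% and 18.2% of all genes tested rose and fell). In B6J, 1 rose and 6 fell, with a median of -0.09 (14.6% and 16.5% of all genes). Cul3 itself had log2 fold changes of -0.20 in 129 and 0.06 in B6J and Rbx1, its RING partner, 0.07 and -0.08, none called. In 129 the genes that rose were Klhl13, an adaptor known from mitosis in human cells (0.48, SE 0.09, edgeR adjusted p = 0.00244), and Cand1, an exchange factor of cullin ligases (0.20). Those that fell were Kbtbd13 (-1.24), Kbtbd2 (-0.56) and Kbtbd3 (-0.53). The calls of Kbtbd13 and Kbtbd3 were lost in 5 and 2 alternatives (adjusted p from 0.0504 to 0.0730 and from 0.0513 to 0.0547).

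Klhl13 and Kbtbd6 were the list genes whose response differed between backgrounds in the direction of Kbtbd11. Klhl13 averaged 211 CPM in 129 with the inhibitor and 152 CPM in 129 with DMSO, against 228 CPM in B6J with the inhibitor and 404 CPM in B6J with DMSO, and the difference of its responses was 1.30 (SE 0.13, edgeR interaction adjusted p = 0.00166). Kbtbd6 averaged 4.17 CPM in 129 with the inhibitor and 3.21 CPM in 129 with DMSO, against 2.14 CPM in B6J with the inhibitor and 3.36 CPM in B6J with DMSO, and the difference was 1.03 (SE 0.20, adjusted p = 0.0320). The call of Kbtbd6 was lost in 11 alternatives (adjusted p from 0.0532 to 0.0972), among them those without any 1 of 10 libraries and the replicate block (adjusted p = 0.0616). Of all genes tested, 1.48% were called in this interaction. Kbtbd12, another KBTBD gene, rose by 2.40 in B6J and was lower in 129 than in B6J with the inhibitor (-3.69, SE 0.51, adjusted p = 0.00044), opposite to Kbtbd11.

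Genes of the family and the pathway of Pla2g4e changed in both directions. Of the 5 other cytosolic phospholipases of the PLA2G4 family, 4 were tested. In 129, Pla2g4a, the arachidonate-releasing enzyme, rose by 0.77 (SE 0.27, edgeR adjusted p = 0.0422, lost in 10 alternatives with adjusted p from 0.0505 to 0.176), and Pla2g4b had -0.96 (SE 0.29, adjusted p = 0.0254, lost in 5 alternatives with adjusted p from 0.0738 to 0.102). In B6J, Pla2g4f rose by 1.06 (SE 0.28, adjusted p = 0.0151), but without B6J DMSO replicate 3 it was no longer called (adjusted p = 0.0609). The median log2 fold change was 0.19 in 129, with 1 of 4 rising and 1 falling (17.4% and 18.2% of all genes tested), and 0.38 in B6J, with 1 of 4 rising (14.6% of all genes). In 129 over B6J with the inhibitor Pla2g4f was higher (1.19) and Pla2g4b lower (-2.26), where 9.47% and 8.9% of all genes tested were called higher and lower.

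Of 15 genes that make, break down or sense N-acylethanolamines 12 were tested. In 129, Gde1 (0.34) and Abhd4 (0.46), enzymes that release N-acylethanolamines or an intermediate from the Pla2g4e product, rose, and Gdpd1 (-1.14), another enzyme of that route, and Cnr1 (-2.68), the cannabinoid receptor, fell, with a median of 0.05 over the list (17.4% and 18.2% of all genes tested rose and fell). In B6J, 6 of 12 fell (16.5% of all genes tested fell), with a median of -0.32: Cnr1 (-2.97), Hrasls (-2.03), Ppara (-1.35), Faah (-0.94), Gdpd1 (-0.70) and Naaa (-0.42). Faah and Naaa are the hydrolases that break N-acylethanolamines down, Hrasls is a calcium-independent N-acyltransferase that makes their precursor, and Ppara is a nuclear receptor for them. The calls of Ppara and Hrasls in B6J were lost in 10 and 5 alternatives (adjusted p from 0.0505 to 0.147 and from 0.0685 to 0.0999), and that of Faah without replicate 2 of B6J with the inhibitor (0.0545). Napepld, the phospholipase D of the main route, averaged 16.4 CPM in 129 with the inhibitor and 17.2 CPM in 129 with DMSO, and 14.0 CPM in B6J with the inhibitor and 13.0 CPM in B6J with DMSO, with neither response called. In the interaction edgeR called 0 of the 12, with 4 at an unadjusted p under 0.05 and 0 called by DESeq2.

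**Figure D3:**
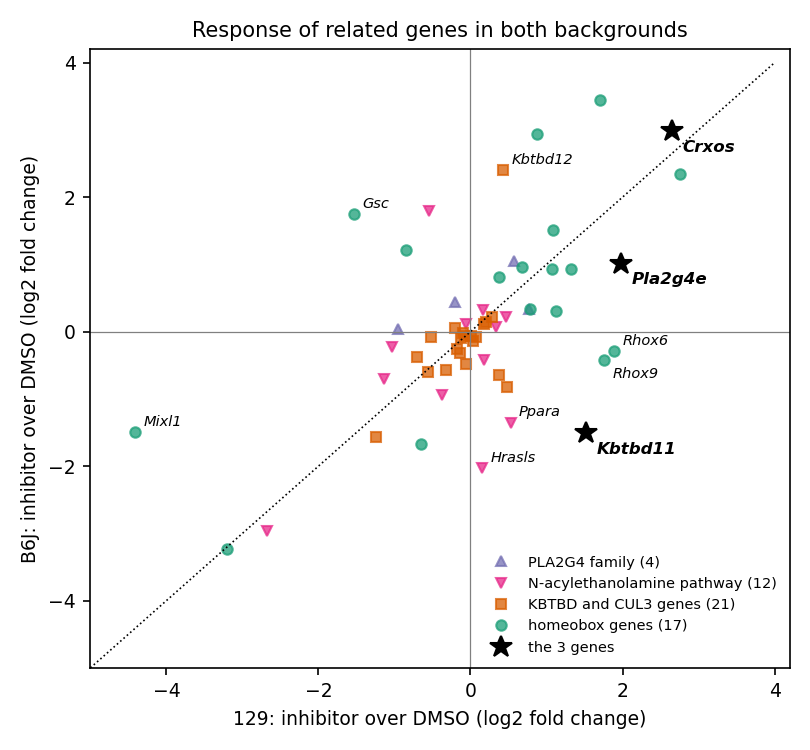
Log2 fold change with the inhibitor in 129 (x axis) and in B6J (y axis) of the tested genes of the 4 lists and of the 3 genes (stars), with the line of equal response dotted. Duxbl1, with 0 counts in 129, is left out. Kbtbd11 sits at 1.52 and -1.51, in the quadrant of opposite responses, while Crxos lies near the dotted line at 2.65 and 2.98.

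The genomic neighbours differed less between the backgrounds than the 3 genes. That follows from the choice of the 3 genes, which were selected on high levels in 129 and levels near 0 in B6J. Of the 30 nearest genes (5 on each side of each gene), 20 were tested and 10 had too few counts. In 129, 4 rose and 3 fell with the inhibitor, with a median log2 fold change of 0.13 (17.4% and 18.2% of all genes tested rose and fell). In B6J, 5 rose and 1 fell, also with a median of 0.13 (14.6% and 16.5% of all genes). Between the backgrounds with the inhibitor 3 were higher and 4 lower in 129 (9.47% and 8.9% of all genes), with a median of 0.02 and a range from -2.26 to 2.33, below the 7.23 to 7.88 of the 3 genes. In the interaction edgeR called 0 of 20, with 5 at an unadjusted p under 0.05 and 1 called by DESeq2.

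Myom2, a muscle sarcomere gene whose start lies 47 kb from that of Kbtbd11, had the largest difference of the tested neighbours in the direction of the 3 genes with the inhibitor. It averaged 4.66 CPM in 129 with the inhibitor and 1.90 CPM in 129 with DMSO, against 0.926 CPM in B6J with the inhibitor and 0.375 CPM in B6J with DMSO. It was higher in 129 than in B6J with the inhibitor (2.33, SE 0.30, edgeR adjusted p = 0.00028) and with DMSO (2.34, SE 0.32, adjusted p = 0.000409), and it rose with the inhibitor in 129 (1.30) and in B6J (1.31). Arhgef10, on the other side of Kbtbd11, was higher in 129 by 0.34 with the inhibitor, a call lost in 7 alternatives (adjusted p from 0.0531 to 0.119). Gm5907, annotated as a long non-coding RNA and the farthest of these neighbours, was higher in 129 than in B6J with DMSO (2.82, SE 0.75, adjusted p = 0.0206, lost in 3 alternatives with adjusted p from 0.0584 to 0.0917) and rose in B6J (2.23, lost in 13 alternatives with adjusted p from 0.0504 to 0.126).

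Beside Crxos, Ehd2, a membrane ATPase, rose in 129 (1.01), Nop53 rose (0.35) and Bicra had -0.42 in 129 and -0.30 in B6J. The B6J call of Bicra was lost in 3 alternatives (adjusted p from 0.0630 to 0.0902). Ehd2 lost its call in 3 alternatives that each left out a 129 library (adjusted p from 0.0559 to 0.0605). None of the 6 tested neighbours of Crxos was called higher in 129 than in B6J with the inhibitor. Of all genes tested 9.47% were, and 6 genes are too few to set against that share. Beside Pla2g4e, Pla2g4f was higher in 129 with the inhibitor, while Pla2g4b (-2.26), Jmjd7 (-1.14) and Mapkbp1 (-0.43) were lower, so genes on the 2 sides of Pla2g4e differed in opposite directions. Pla2g4b, Jmjd7 and Gm28042 share a locus, and how reads between them were assigned is not given in the sources used here. Of the rest, Tmem87a had -0.22 in 129 (lost in 5 alternatives, adjusted p from 0.0511 to 0.0848) and Ganc rose by 0.41 in B6J (lost in 3, adjusted p from 0.0575 to 0.101).

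**Figure D4:**
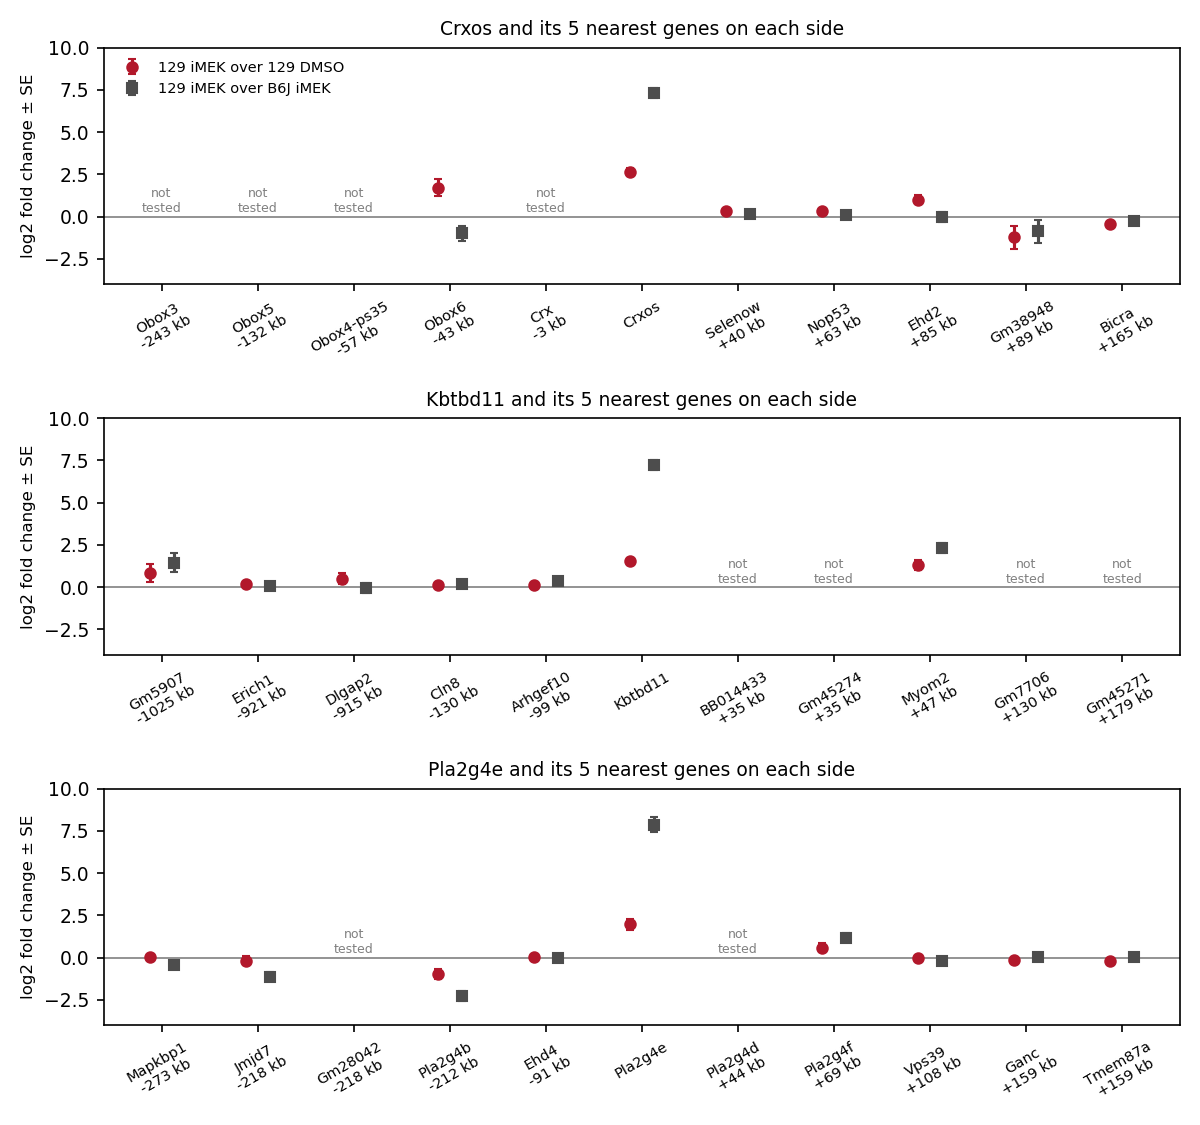
Log2 fold change with standard error of each of the 3 genes and its 5 nearest genes on each side, with the distance between gene starts in kb, for 129 with over without the inhibitor (circles) and for 129 over B6J with the inhibitor (squares). Tested neighbours lie between -2.26 and 2.33 for the squares, against 7.23 to 7.88 for the 3 genes, which were selected on these levels.

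By cosine similarity of CPM over the 12 libraries, where 1 means the same proportions, the 3 genes were among each other's closest matches of 13788 genes with at least 1 CPM in their highest group. The similarity was 0.993 between Crxos and Pla2g4e, 0.994 between Kbtbd11 and Pla2g4e and 0.984 between Crxos and Kbtbd11. The 3 genes were selected on a shared pattern in these same libraries, so their closeness to each other follows from that choice. The measure is ruled by the libraries with the highest levels and says little of the low B6J values, where Kbtbd11 and Crxos went opposite ways.

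Other genes with a pattern like that of Crxos were Pramef17 (0.993), Snx20 (0.992) and Trim43b (0.987). Pramef17, of a family with many near-identical copies expressed in early embryos, averaged 6.38 ± 0.946 CPM in 129 with the inhibitor, 0.370 ± 0.020 CPM in 129 with DMSO, 0.0794 ± 0.111 CPM in B6J with the inhibitor and 0 in B6J with DMSO (SD, n = 3 each). Snx20, a sorting nexin of blood cells, averaged 2.73 ± 0.400 CPM in 129 with the inhibitor, 0.479 ± 0.120 CPM in 129 with DMSO, 0.249 ± 0.0699 CPM in B6J with the inhibitor and 0.109 ± 0.0345 CPM in B6J with DMSO (SD, n = 3 each). Like Crxos, both had a higher mean with the inhibitor than with DMSO in each background.

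Most like Kbtbd11 were Dcstamp (0.998), a fusion protein of osteoclasts and dendritic cells, Zfp607b (0.996), a zinc finger gene, Rpl10l (0.992), a copy of the ribosomal protein gene Rpl10 without introns, and Mmrn2 (0.990), an endothelial matrix protein. Mmrn2 (0.994) and Zfp607b (0.993) were also close to Pla2g4e, as was Snx20 (0.991). Zfp607b averaged 34.7 ± 3.49 CPM in 129 with the inhibitor, 11.4 ± 0.766 CPM in 129 with DMSO, 2.26 ± 0.128 CPM in B6J with the inhibitor and 1.51 ± 0.339 CPM in B6J with DMSO (SD, n = 3 each), so it matched Kbtbd11 in 129 and was less reduced in B6J. In B6J, Dcstamp, Zfp607b, Rpl10l and Mmrn2 each had a higher mean with the inhibitor than with DMSO, opposite to Kbtbd11.

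**Figure D5:**
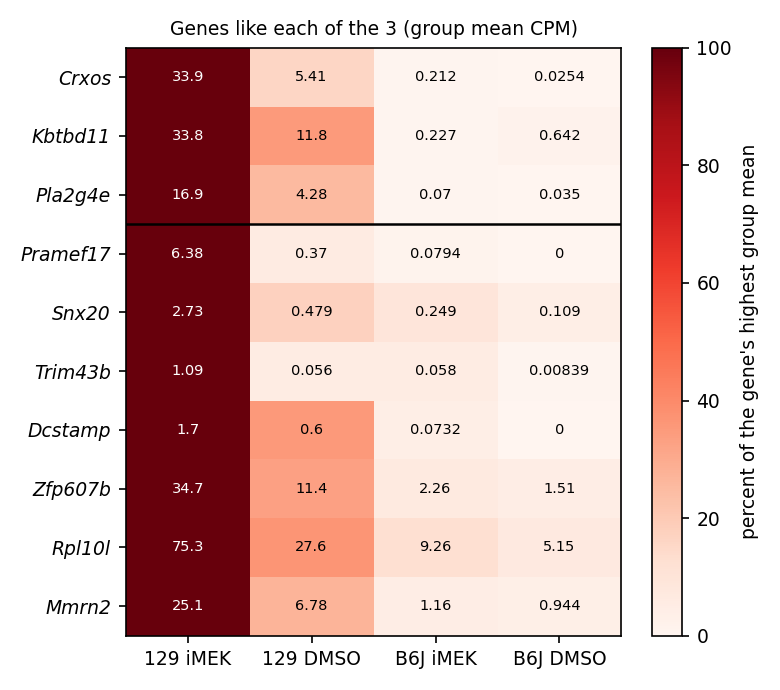
Mean CPM (numbers) of the 3 genes and of genes like them in the 4 groups, with colour as percent of each gene's highest group mean. All have their highest mean in 129 with the inhibitor, and the B6J means of the 3 genes are 0.642 CPM or lower.

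A stricter reading of "on in 129 only" was also counted over the whole table: every 129 library with the inhibitor at 1 CPM or more, every B6J library under 0.2 CPM, and a mean in 129 with DMSO at most 50% of that with the inhibitor. It was met by 9 of 26742 genes, 4 of them with provisional names, and the same rule with the backgrounds exchanged was met by 5. Of the 3 genes Pla2g4e met it. Crxos missed it by its B6J libraries with the inhibitor, up to 0.228 CPM, and Kbtbd11 by its B6J libraries, up to 0.755 CPM. The other named genes that met it were Necab1, a calcium-binding protein (3.74 ± 0.714 CPM in 129 with the inhibitor and 1.55 ± 0.161 CPM in 129 with DMSO, SD, n = 3 each), Pkd2l1, a cation channel (3.66 ± 1.35 CPM and 0.235 ± 0.103 CPM in those groups), Dcstamp (1.70 ± 0.281 CPM and 0.60 ± 0.246 CPM) and the cancer-testis gene Magea4 (1.41 ± 0.295 CPM and 0.575 ± 0.132 CPM).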

How the data were processed

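RNA was measured as TruSeq stranded mRNA libraries of 12 ES cell samples in 4 groups. The authors deposited raw counts per gene, with no normalization. Per the submitters' processing notes, the tools were HTSeq 0.6.1p1, STAR 2.7.10, DESeq and SAMtools and the builds GRCm38 and mm10; their roles and order are unstated. How the counting treated strand or multi-mapping reads, and which annotation it used, is not given in the sources used here. Reads of overlapping, antisense and near-identical genes may be split or shared.

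Symbols and positions came from GENCODE M21 (GRCm38), in which 26725 of 26742 identifiers were found, and 21775 genes had a count. Genes passing filterByExpr (min.count 10, min.total.count 15) were kept, 16627 in all, and the deposited counts were fitted with edgeR 4.0.16 (R 4.3.3): TMM scaling and a quasi-likelihood fit of 4 group means over all 12 libraries. The contrasts were both responses, both background differences and the interaction. Calls were made at an adjusted p under 0.05 (Benjamini-Hochberg over all genes tested), and every adjusted p in the text is from this test. Levels are CPM with TMM-adjusted library sizes, as mean ± SD, and folds between groups are ratios of these means or fitted log2 values. Tests ran on simulated data first. Where a group holds few counts, the number of counts limits the precision, and such limits cover counting error only.

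The members and lists were chosen with earlier results of these data known. The text names the members, their neighbours, up to 4 called genes per list and contrast with the largest change, the 5 genes most like each member, and genes meeting the on and off pattern, without provisional names except among neighbours. Further list genes (Crx, Cul3, Rbx1, Cand1, Kbtbd3, Napepld, Prrx1, Prrx2, Egr1, Gde1 and similar) were named after their values were seen. Nnt was added too. Some genes that these rules name are not reported here.

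Same-numbered 129 libraries deviated from their group means together (correlations over genes of 0.442, 0.295 and 0.222 between the inhibitor and DMSO). Replicate 2 with the inhibitor and replicate 3 with DMSO had 0.194, and replicate 3 with the inhibitor and replicate 2 with DMSO had 0.209. The numbers thus set replicate 1 apart and do not show how replicates 2 and 3 pair. In B6J the correlations of same-numbered libraries were -0.188, 0.0883 and -0.170. Alternatives were DESeq2 1.42.0, its size factors, no filter, halved counts, 2 groups per fit, a replicate block within each background, and each library left out.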

Additional observations from a re-analysis of the deposited data

Results flagged for a closer look

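Kbtbd11 had a response in 129 minus that in B6J of 3.03 on the log2 scale. With the inhibitor its libraries lay above those with DMSO in 129 and below them in B6J, with no overlap in either background. The difference was not tested, since the gene was chosen on these values.

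Among the genes of the lists, 9 had responses to the inhibitor that differed between 129 and B6J by the edgeR interaction test (adjusted p under 0.05). Of all genes tested, 1.48% were called in it. The differences, 129 minus B6J on the log2 scale, were 1.03 for Kbtbd6 and 1.30 for Klhl13 among the 21 tested KBTBD and CUL3 genes. Among the 18 tested homeobox genes they were -3.28 for Gsc, 2.18 for Rhox6, 2.17 for Rhox9 and -2.92 for Mixl1. They were 1.68 for Gata3 among the 6 tested trophoblast markers, and -4.74 for Zscan4c and -4.72 for Zscan4d among the 10 tested 2-cell-like markers. The remaining lists held no called gene. The Zscan4c and Zscan4d calls were lost without most single libraries (10 and 11 alternatives), that of Kbtbd6 in 11 and that of Gata3 in 3. Dixon's outlier criterion was not applied to groups of 3 libraries.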

How the results depend on the processing

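The levels and differences of Crxos and Kbtbd11 kept their direction under all alternatives run, and the response of Crxos in 129 ran from 2.40 to 2.91 with 1 library left out. Pla2g4e, with 18 B6J counts with the inhibitor and 8 with DMSO, kept its direction except in the difference of its responses. With 1 library left out its B6J response ran from 0.42 to 2.37, its 129 over B6J difference from 7.51 to 8.49 with the inhibitor and from 6.34 to 8.27 with DMSO, and its difference of responses from -0.39 to 1.57, turning negative without replicate 3 of B6J with DMSO.

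With the replicate block the 129 responses were 2.71 for Crxos, 1.54 for Kbtbd11 and 1.97 for Pla2g4e, and the called genes numbered 6216 in 129, 5507 in B6J and 238 in the interaction, against 5930, 5166 and 246. Called PLA2G4 genes in B6J became 2, against 1, with the block, though the B6J numbers did not pair. Under it Kbtbd6 (interaction adjusted p = 0.0616) and, in B6J, Gm5907 (0.102), Ppara (0.0579) and the primitive endoderm marker Amn (0.0695) lost a call.

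With DESeq2 the interaction called 798 genes, against 246, and the KBTBD and CUL3 list 9 in 129, against 5. With only the groups compared in the fit, 129 over B6J with DMSO called 2247 genes, against 3468, and in 129 the PLA2G4 family had 0, against 2, and the neighbours 4, against 7. Leaving out 1 library gave 73 to 586 interaction genes (586 without replicate 1 of 129 with DMSO). For list calls it gave 0 to 2 (PLA2G4), 3 to 8 (KBTBD and CUL3) and 3 to 8 (neighbours) in 129, and 0 to 1 (PLA2G4), 3 to 8 (N-acylethanolamine) and 3 to 8 (neighbours) in B6J. Gata4 and Sox17, primitive endoderm markers, ran from -4.63 to 0.0468 and from -4.85 to 0.0466 in 129 (log2), positive without replicate 1 of 129 with DMSO. The cause was not tested.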
